A study of Mus musculus with 2 samples.

Results

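Genes of the cilium, and the RFX transcription factors that are known to bind their promoters, were examined in DNase-seq maps of mouse embryonic hindbrain. The members were the protein-coding genes of the GENCODE M21 basic annotation whose symbol is Ift, Bbs, Cfap, Dnah, Dnai or Dnaaf followed by a digit, together with Rfx1 to Rfx7. The rule used symbols and no measured value, and it found 79 of 21938 protein-coding genes. These were 14 Ift and 8 Bbs genes, called primary cilia genes here (22 in all), then 31 Cfap, 15 Dnah and 4 Dnaaf genes, called motile cilia genes (50 in all), and 7 Rfx genes. No gene carries a Dnai symbol in this annotation, where the intermediate chains of axonemal dynein are named Dnaic1 and Dnaic2. Those 2 genes, Foxj1 to Foxj3 and other cilia genes with other symbols were taken as further lists.

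DNase-seq cuts nuclei with the nuclease DNase I and so maps the stretches of open chromatin. The tissue was whole hindbrain of healthy B6NCrl embryos at embryonic day 14.5, with males and females pooled, and no genetic change or treatment is given. The single group held 2 biological replicates, both recorded under the same donor, so the spread between them is the spread of 2 libraries and may be partly technical. No contrast between conditions exists and genes are not replicates of a condition. All counts and medians below are therefore descriptions, most of them set beside the same value over all protein-coding genes.

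Cilia are built by intraflagellar transport, in which Ift proteins carry cargo along the axoneme and the BBSome, made of Bbs proteins, moves membrane proteins. Nearly all neural progenitors carry a single primary cilium, which Hedgehog signalling needs, whereas motile cilia, with dynein arms (Dnah heavy chains, assembled in the cytoplasm with the help of Dnaaf proteins) and many Cfap proteins, belong in the brain to cells of the ventricle walls and the choroid plexus. RFX factors bind the X-box, an inverted repeat in the promoters of cilia genes of both kinds, and the forkhead factor FOXJ1 is needed to make motile cilia.

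The X-box was searched as GTTGCC, 2 letters of any kind and GGCAAC, with up to 2 mismatches over these 12 letters. It is its own reverse complement, so both strands are covered. The closest matches in promoter peaks of members are shown first, because the comparison of promoters below returns to them. Capitals mark the X-box, each line reads 5′ to 3′ on the strand of the gene, and the flanks are 8 bases on each side.
Cfap97d1: gtcatcccGTTGCCATGGCAACgaaggcag
Cfap44: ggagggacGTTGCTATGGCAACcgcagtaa
Cfap97d2: aaggcctgGGTGCCATGGCAACcgtcacat
Dnaaf1: gcgcactgGTTGCCGCGGCGACcgggaaag
Bbs1: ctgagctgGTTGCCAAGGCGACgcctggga
On mm10 these windows are chr11:101984212-101984241 (plus strand), chr16:44394764-44394793 (plus), chr8:13705854-13705883 (plus), chr8:119575268-119575297 (plus) and chr19:4906605-4906634 (minus). The Cfap97d1 site matches all 12 letters and the other 4 have 1 mismatch each. The centre of each X-box lies from 52 bp before to 48 bp after the nearest annotated start of its gene.

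Within 1 kb of an annotated start, all 22 primary cilia genes had a peak that both libraries shared (22 of 22), as did 44 of 50 motile cilia genes (88.0%) and 7 of 7 Rfx genes. Over all protein-coding genes the share was 64.6%, or 14169 of 21938. Among the motile families the counts were 30 of 31 for Cfap, 4 of 4 for Dnaaf and 10 of 15 for Dnah. Each library alone gave the same 73 of 79 members, against 69.9% of all genes in replicate 1 and 65.7% in replicate 2, and no member was called in only 1 library. The genes without a promoter peak were thus all motile, and 5 of these 6 encode dynein heavy chains. In bulk tissue, a site open in few cells and a site open weakly in many cells cannot be told apart.

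The strongest promoter peak of each gene was compared by the deposited score, a whole number from 1 to 150 whose unit is not stated, so scores are read within a library only. Among Ift genes, Ift27, a small GTPase of the anterograde transport complex, scored 148 in replicate 1 and 126 in replicate 2. Ift140, a subunit of the retrograde complex, and Ift172, the largest subunit of the anterograde complex, both scored 146 and 121. At the low end Ift43, also of the retrograde complex, had 124 and 85, and Ift52, a core subunit of the anterograde complex, had 128 and 98. Ift88, a core subunit often used to study the loss of cilia, had 140 and 105. The 14 Ift genes thus lay close together, with medians of 142.5 and 117.5.

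In the Bbs family, Bbs2, a core subunit of the BBSome, scored 148 in replicate 1 and 126 in replicate 2, and Bbs10, a chaperonin-like protein that helps to assemble it, scored 144 and 120. Bbs1, another BBSome subunit, had 118 and 92, and Bbs4 had 123 and 78. These 2 were the lowest of the family in replicate 1 and also in replicate 2. The median over the 8 Bbs genes was 136.5 in replicate 1 and 105.5 in replicate 2.

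Axonemal dynein genes spread much further. Dnah6, an inner-arm heavy chain, scored 136 in replicate 1 and 96 in replicate 2, and Dnah9, an outer-arm heavy chain, scored 132 and 104. In contrast, the inner-arm chains Dnah1 and Dnah10 had 55 and 29, and 67 and 39. Their peaks lay 55 bp before and 6 bp after the start in replicate 1, so the low scores are those of peaks on the start itself. Over the 10 Dnah genes with a shared peak, the median was 102.5 in replicate 1 and 52.5 in replicate 2. Dnah7a, Dnah7b and Dnah7c are near-identical copies on chromosome 1, so reads may have been split between them or lost. Their scores of 104, 122 and 101 in replicate 1, and of 70, 65 and 45 in replicate 2, are uncertain for that reason.

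The 4 Dnaaf genes, whose products fold and assemble dynein arms in the cytoplasm, fell into 2 pairs. Dnaaf5 scored 146 in replicate 1 and 119 in replicate 2, and Dnaaf1 scored 138 and 105. Dnaaf2 had 96 and 56, and Dnaaf3 had 97 and 39, so both were below the other pair in each library. Among Cfap genes, Cfap20, a protein of the axoneme, had the highest score of any member, with 150 and 133, followed in replicate 1 by Cfap36 with 149 and 114. The lowest were Cfap126, known as Flattop, with 73 and 26, and Cfap157 with 76 and 40. The median over the 30 Cfap genes with a shared peak was 118 in replicate 1 and 83 in replicate 2.

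**Figure D1:**
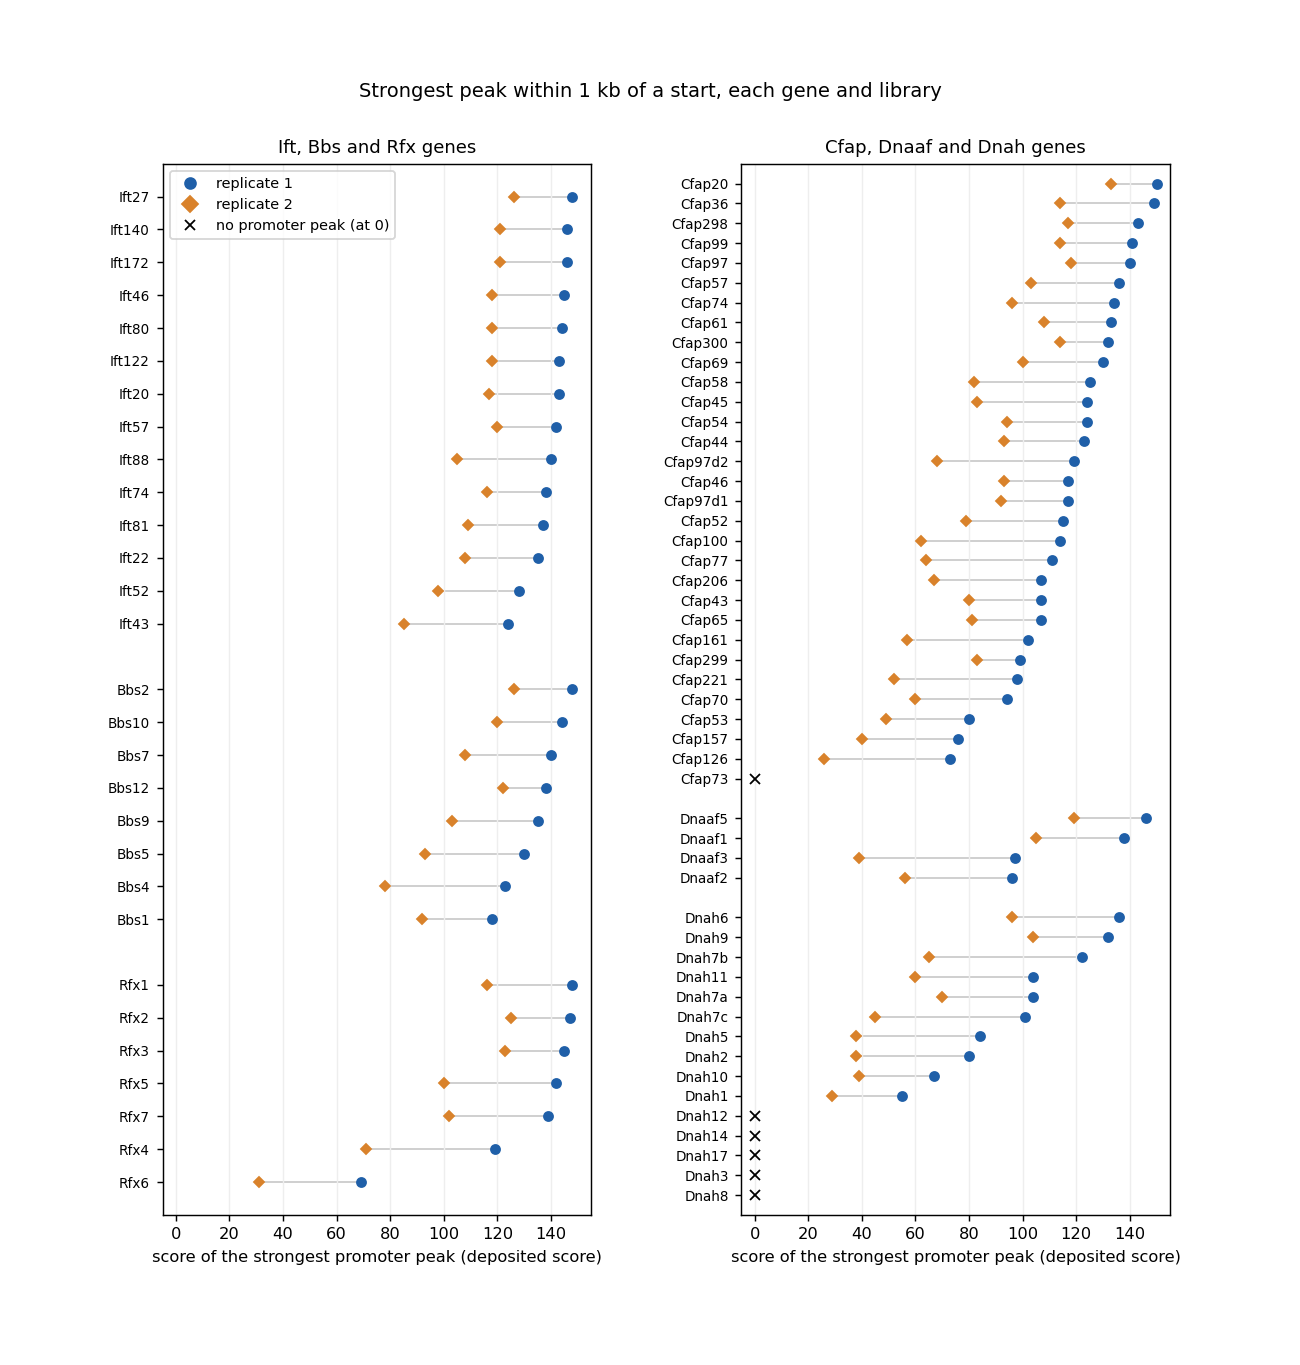
Deposited score of the strongest peak within 1 kb of a start (horizontal axis) for each of the 79 genes, by family and ordered by replicate 1, with circles for replicate 1, diamonds for replicate 2 and crosses at 0 for genes without a promoter peak. The Ift and Bbs genes lie between 118 and 148 in replicate 1, while the Dnah genes with a peak run from 55 to 136 and 5 have none.

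Over the whole classes, the median best score was 140 in replicate 1 (range 118 to 148) and 116.5 in replicate 2 (78 to 126) for primary cilia genes. For the 44 motile cilia genes with a shared peak it was 116 (55 to 150) and 80.5 (26 to 133), and for all protein-coding genes with one it was 130 and 96. The classes overlapped, but 24 of the 44 motile genes scored under the lowest primary gene in replicate 1, and 20 of the 44 did so in replicate 2. Put as percentiles among all peaks of a library, the primary genes had medians of 98.8 and 98.8, and the motile genes 94.8 and 91.4. All protein-coding genes with a shared promoter peak had medians of 97.1 and 95.0, so a place above percentile 90 is usual for a promoter peak. All 22 primary genes stood at or above percentile 90 in each library, as did 34 motile genes in replicate 1 and 24 in replicate 2. Neither this count nor the count of genes scoring under the lowest primary gene was made over all genes. Across the 73 members with a promoter peak, the percentiles of both libraries were ordered much alike (Spearman's rho = 0.95 over 73 genes, which share the same 2 libraries).

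Hotspots, the wider enriched regions the authors called, gave the same split. Their deposited −log10 q runs up to 6 or is written as 100, which was read as a cap. All 22 primary cilia genes had a hotspot at the cap within 1 kb of a start in both libraries, as did 37 of 50 motile genes and 6 of 7 Rfx genes, beside 55.8% of all protein-coding genes. The 7 motile genes with a promoter peak that missed the cap did so in replicate 2 only. They were Cfap126 (3.84), Cfap157 (5.52), Cfap53 (5.22), Dnaaf3 (4.96), Dnah1 (2.41), Dnah10 (4.55) and Dnah2 (1.83), where each value is the −log10 q in replicate 2.

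Promoters of the classes differ in CpG content, which goes with open chromatin over all genes, so the counts were repeated within classes of the CpG observed/expected ratio around the outermost start. The median ratio was 0.71 for primary cilia genes, 0.52 for motile cilia genes, 0.42 for the Dnah family, 0.83 for Rfx genes and 0.57 for all protein-coding genes. At a ratio of 0.6 and over, all 17 primary, all 19 motile and all 6 Rfx genes had a shared promoter peak, beside 96.6% of all such genes, so the classes did not differ from the background there. Under 0.6, all 5 primary genes (5 of 5) and 25 of 31 motile genes (80.6%) had one, beside 35.6% of all such genes.

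That class is broad, and 18 of its 31 motile genes and all 5 primary genes lie from 0.4 to 0.6, where open promoters are more frequent over all genes, so it was divided further. From 0.4 to 0.6, 17 of 18 motile and 5 of 5 primary genes had a shared promoter peak, beside 80.7% of all genes. From 0.2 to 0.4 the count was 6 of 11 motile genes (54.5%), beside 33.1% of all genes, and no primary gene fell there. Under 0.2 lay Cfap157 and Dnah2, both with a shared promoter peak, where 9.25% of all genes had one. The Dnah2 peak lies 765 bp downstream of an inner start. It is more than 1 kb from the outermost start, where the ratio was taken. The excess of motile genes over all genes under 0.6 was therefore smaller in the classes from 0.2 to 0.6 than in the broad class. Below 0.2 it rests on 2 genes, of which only Cfap157 has its peak at the start whose ratio was taken.

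**Figure D2:**
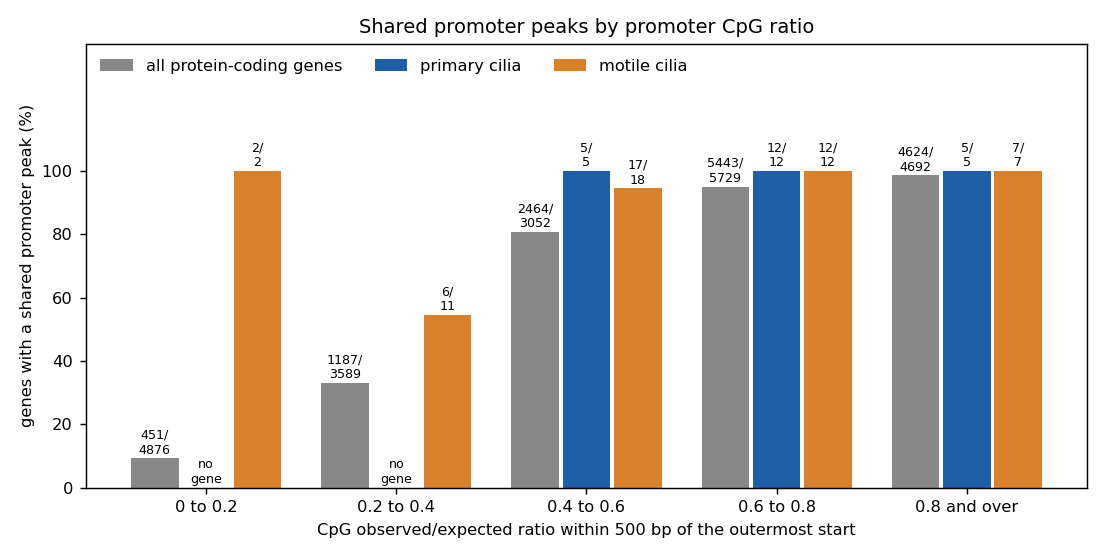
Share of genes with a shared promoter peak (vertical axis, percent, from 0) in 5 classes of promoter CpG observed/expected ratio (horizontal axis), for all protein-coding genes, primary cilia genes and motile cilia genes, with the counts above each bar. All primary genes have a shared peak in each class that holds any, and the motile genes reach 6 of 11 from 0.2 to 0.4, beside 1187 of 3589 of all genes.

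Scores followed the same division. Motile genes with a ratio of 0.6 and over had a median best score of 132 in replicate 1 and 103 in replicate 2, close to the 135 and 103 of all such genes. Under 0.6 the motile genes had 107 and 62, and all such genes 109 and 65. Both pairs of medians lie under the lowest scores of a primary gene, 118 and 78. The primary genes stood higher in both classes, with 142 and 118 at 0.6 and over and, for 5 genes, 135 and 108 under 0.6. The difference between primary and motile genes was thus also present within each CpG class, and in both libraries. Under 0.6, however, the classes were not matched. The median ratio there was 0.58 for the 5 primary genes and 0.42 for all 31 motile genes. Scores were not compared in narrower classes.

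The 6 members without a promoter peak were Dnah3, Dnah8, Dnah12, Dnah14, Dnah17 and Cfap73. Dnah3 and Dnah12 encode inner-arm chains, Dnah8 and Dnah17 encode outer-arm chains known from the sperm tail, and Cfap73 belongs to the machinery that holds inner arms. Their CpG ratios ran from 0.21 (Dnah17) to 0.40 (Dnah14), and none had a hotspot within 1 kb of a start in either library. The nearest peak lay 1597 bp (Dnah17) to 8480 bp (Dnah8) from a start in replicate 1, and 2834 bp (Dnah3) to 6792 bp (Dnah14) in replicate 2. All 6 nevertheless had distal shared peaks within 50 kb, from 4 for Dnah3, Dnah8 and Dnah12, through 7 for Dnah14 and Dnah17, to 14 for Cfap73. The choice of start matters for 4 genes. With all transcripts of GENCODE M21 in place of the basic set, Dnah8 and Dnah14 gained a shared promoter peak, which makes 46 of 50. With the single RefSeq start, given for 19 primary, 41 motile and 7 Rfx genes, Dnah2 and Rfx6 lost theirs, and the counts were 19 of 19, 36 of 41 and 6 of 7.

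Some of these promoters serve another gene as well. Another protein-coding gene started within 1 kb of a start for 5 of 22 primary genes, 7 of 50 motile genes and none of the 7 Rfx genes, beside 12.3% of all protein-coding genes. The pairs among primary genes were Ift140 with Cramp1l, Ift122 with Mbd4, Ift80 with Smc4, Ift20 with Tnfaip1 and Bbs12 with Cetn4. Among motile genes they were Dnaaf1 with Hsdl1, Cfap52 with Stx8, Cfap57 with Ebna1bp2, Cfap61 with Crnkl1, Cfap97d1 with Dusp3, Cfap99 with Zfyve28 and Dnah8 with Glo1. Peaks do not say which gene of a pair they serve. Restricted to genes with no other start within 1 kb, the counts were 16 primary and 33 motile genes with a shared promoter peak, and the difference in share between the classes was 13.2 percentage points instead of 12.

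X-boxes were then counted in the shared promoter peaks themselves. With up to 2 mismatches, 5 of 22 primary genes and 10 of 44 motile genes held one, which is 22.7% in both classes, beside 4.5% of all protein-coding genes with a shared promoter peak. No promoter peak of the 7 Rfx genes did. With up to 1 mismatch the counts were 1 primary gene (Bbs1) and 4 motile genes (Cfap44, Cfap97d1, Cfap97d2 and Dnaaf1), beside 1.33% of all such genes. With up to 3 mismatches they were 8 of 22 (36.4%) and 26 of 44 (59.1%), beside 18.1%. The share in both classes thus lay above that of all genes at these 3 limits, and the motile share was equal to or above the primary one. The families differed, however. At up to 2 mismatches the counts were 2 of 14 Ift, 3 of 8 Bbs, 8 of 30 Cfap and 2 of 4 Dnaaf genes. None of the 10 Dnah genes with a shared promoter peak held one at this limit, and 6 of the 10 did at up to 3.

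**Figure D3:**
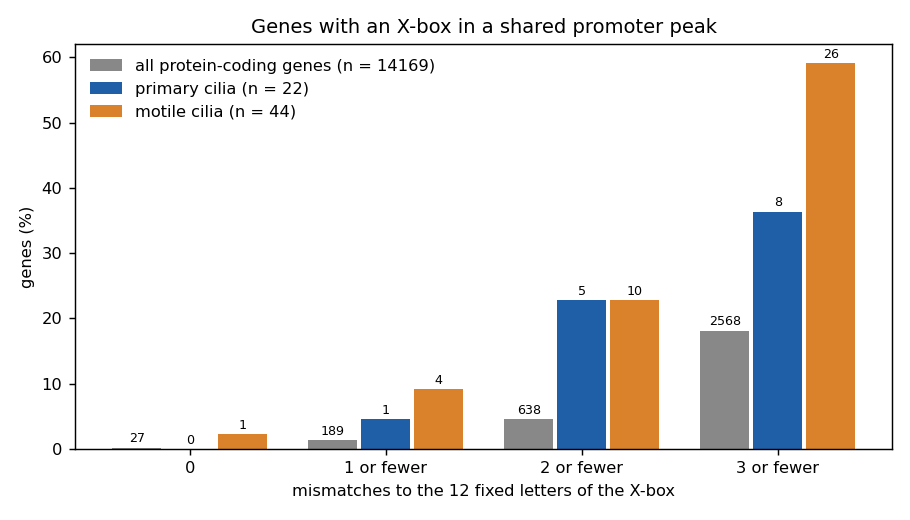
Share of genes with a shared promoter peak (vertical axis, percent, from 0) whose peak holds an X-box, at up to 0, 1, 2 or 3 mismatches to the 12 fixed letters (horizontal axis), with the number of genes above each bar. At up to 2 mismatches both cilia classes stand at 22.7% and all protein-coding genes at 4.5%.

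Counts by peak, which do not depend on how many peaks a gene has, were similar. An X-box with up to 2 mismatches was in 5 of 33 shared promoter peaks of primary genes (15.2%), 11 of 70 of motile genes (15.7%) and 0 of 20 of Rfx genes, beside 733 of 30691 shared promoter peaks overall (2.39%). In windows of the same 150 bp centred on the outermost start of every protein-coding gene, open or not, it was in 378 of 21938 (1.72%). Among all genes with a shared promoter peak the share was 4.06% at a CpG ratio of 0.6 and over and 5.58% under it, so CpG content moved the background little. Of the 16 sites in promoter peaks of members, 14 lay within 100 bp of a start, and the farthest was 760 bp away, a second match near Cfap97d1.

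The members whose closest match had 2 mismatches were Bbs4, Bbs5, Ift22 and Ift140 among primary genes, and Cfap45, Cfap61, Cfap100, Cfap161, Cfap221 and Dnaaf2 among motile genes. The strongest peak of Ift140 is printed whole, as the member with an X-box whose peak scored highest (146 in replicate 1 and 121 in replicate 2). It lies at chr17:25015896-25016045 on mm10, just upstream of the first exon, on the plus strand, with the X-box in capitals.
Ift140: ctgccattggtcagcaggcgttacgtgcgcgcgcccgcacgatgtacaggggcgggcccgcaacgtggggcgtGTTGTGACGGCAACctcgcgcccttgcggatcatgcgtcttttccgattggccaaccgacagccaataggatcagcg
Of the 15 members with an X-box, 8 had a promoter CpG ratio under 0.6, and 4 shared the promoter with another coding start within 1 kb (Cfap61, Cfap97d1, Dnaaf1 and Ift140).

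When the search left the peaks and took all sequence within 500 bp of any start, 11 of 22 primary and 12 of 50 motile genes held a match with up to 2 mismatches, beside 7.84% of all protein-coding genes. There the primary share was above the motile one, whereas in the peaks they were equal at this limit. The shorter word GTTGCC, on either strand, was in shared promoter peaks of 6 of 22 primary and 19 of 44 motile genes, beside 13.7% of all genes with such a peak. Some of these words are one side of an X-box already counted, but most of these genes had no X-box with up to 2 mismatches. The forkhead core TGTTTAC, on either strand, was in those of Cfap43 and Rfx3 and of no other member, which is 2 of 73 (2.74%), beside 2.49% of all genes, a share near the background. A match is a run of letters and says nothing about binding, and no match says only that these letters are not in the peak.

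Genes of the same pathways under other symbols gave similar promoter counts. All 23 further intraflagellar transport and BBSome genes found (among them Ttc26, Cluap1 and Arl6), and all 22 genes of the transition zone and ciliary membrane found (among them Cep290, Mks1 and Ahi1), had a shared promoter peak, beside 64.6% of all genes and 96.6% of those with a CpG ratio of 0.6 and over, where 19 of the 23 and 20 of the 22 fall. Of 45 further genes of the motile axoneme, 41 did. By CpG ratio the count was 14 of 14 at 0.6 and over, beside 96.6% of all such genes. Under 0.6 it was 27 of 31 (87.1%), beside 35.6%. Dnaic1 scored 147 in replicate 1 and 122 in replicate 2, and Dnaic2 121 and 63. Pih1d3 and Nme8 had no promoter peak in either library, and Armc4 and Tekt3 had one in replicate 1 only. An X-box with up to 2 mismatches stood in shared promoter peaks of 8 of 23 (34.8%), 7 of 22 (31.8%) and 8 of 41 (19.5%) of these lists, in the order given, beside 4.5% of all genes with such a peak. Exact matches were in those of Dync2li1, the light intermediate chain of the retrograde dynein, and Tctn1, a transition zone protein. They are shown because they repeat the inverted repeat seen at Cfap97d1.
Dync2li1: gtgacgtcGTTGCCATGGCAACcgaggagc
Tctn1: ctgtgactGTTGCCCGGGCAACagacgggc
On mm10 the windows are chr17:84626445-84626474 (plus strand) and chr5:122264403-122264432 (minus strand), with the X-box in capitals.

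Distal sites, more than 1 kb from every start and within 50 kb of the outermost start of a gene, did not separate the classes as promoters did. Replicate 1 had a median of 7 distal peaks per primary gene, 9 per motile gene and 6 per Rfx gene, and replicate 2 had 4, 5 and 4, where all protein-coding genes had 8 and 4. The median number of distal shared peaks was 2.5 (range 0 to 7) for primary genes, 4 (0 to 17) for motile genes, 3 (1 to 9) for Rfx genes and 3 for all genes. None was found for 3 of 22 primary genes (Bbs4, Ift46 and Ift74), 2 of 50 motile genes (Cfap70 and Dnah10) and none of the Rfx genes, beside 17.7% of all genes. Neighbouring genes can count the same peak, and the unique distal shared peaks numbered 69, 241 and 31 for primary, motile and Rfx genes. Introns held 36, 149 and 27 of these. The peaks inside the member itself numbered 11, 90 and 15, and many motile genes are long.

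**Figure D4:**
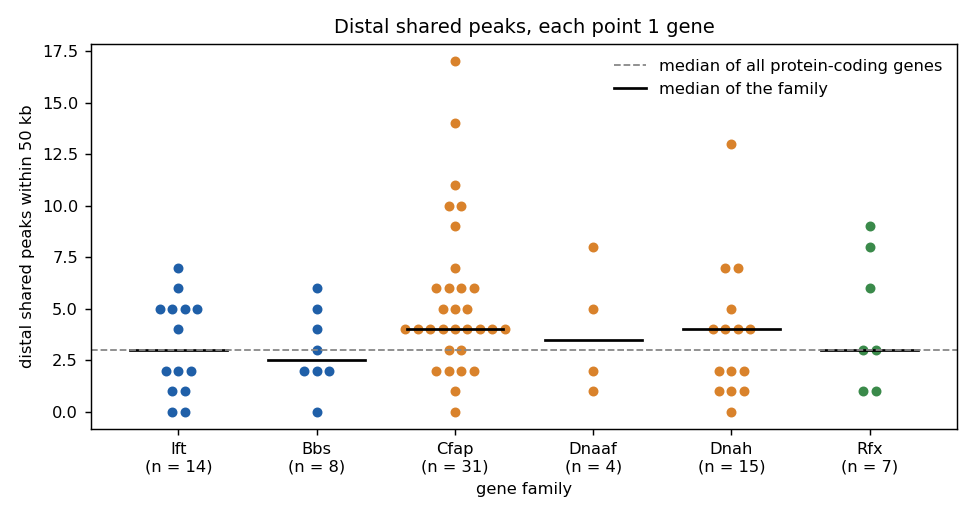
Number of distal shared peaks within 50 kb of the outermost start (vertical axis) for each gene (points) by family (horizontal axis), with the family median as a black line and the median of all protein-coding genes, 3, as a dashed line. Most genes of each family lie between 0 and 8, and Cfap126 (17), Cfap73 (14) and Dnah2 (13) stand highest.

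The motile genes with the most distal shared peaks were Cfap126 with 17, Cfap73 with 14 and Dnah2 with 13. Among primary genes these were Ift52 with 7 and Ift22 and Bbs5 with 6 each. Both Cfap73 and Dnah2 have strong sites with an X-box in reach, some of them inside other genes. The site 46096 bp upstream of Cfap73 scored 146 in replicate 1 and 98 in replicate 2 and overlaps an exon of Dtx1, a regulator of Notch signalling. A site 2497 bp downstream of the outer start of Dnah2, in its own intron, scored 125 and 83, and another 8663 bp upstream, in an intron of Efnb3, scored 103 and 66. Their X-boxes are shown in capitals, on the plus strand of mm10, because 2 of the 3 match all 12 letters.
Cfap73 region: gctggtgaGTTGCCTGGGCAACgggcctct
Dnah2 intron: atgcacgcGTCGCCATGGCAACtcggggcc
Dnah2 upstream: ccggtgccGTTGCCATGGCAACaggatgcc
These windows are chr5:120680337-120680366, chr11:69546542-69546571 and chr11:69557772-69557801, and the middle one has 1 mismatch. A further exact match, in an intron of Cfap53 itself, 5081 bp downstream of the start, lay in a weaker distal peak with scores of 62 and 25. Over all distal shared peaks of members, however, 8 of 341 held an X-box with up to 2 mismatches (2.35%), beside 2837 of 81031 distal shared peaks overall (3.50%). At up to 1 mismatch it was 5 of 341 (1.47%), beside 1.21%. Exact matches were in 3 of 341 (0.88%), beside 0.20%. At up to 2 mismatches the higher share seen in promoter peaks was thus not found at distal sites. The share of exact matches was above the background, but it rests on 3 peaks.

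The Rfx genes encode the factors that bind the X-box, and Rfx2 and Rfx3 are those best known for ciliogenesis. The strongest promoter peak of Rfx1 scored 148 in replicate 1 and 116 in replicate 2. Rfx2 had 147 and 125, and Rfx3 had 145 and 123. The values for Rfx5, known for control of MHC class II genes, were 142 and 100, and for Rfx7 139 and 102. Lower were Rfx4, a factor of the developing brain, with 119 and 71, and Rfx6, known from pancreatic endocrine cells, with 69 and 31. Rfx6 was the lowest of the family in both libraries, its peak lies 81 bp from a start that RefSeq does not give, and its CpG ratio of 0.52 is the only one in the family under 0.6.

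Around the starts, the Rfx genes differed more than their best scores show. Rfx3 had 5 shared promoter peaks, of which those at 431 bp and 91 bp upstream scored 145 and 144 in replicate 1 and 123 and 97 in replicate 2, but it had a single distal shared peak, 22229 bp into the gene, with 82 and 32. Rfx2 had 2 shared promoter peaks and 9 distal ones, 8 of them in its own introns. The strongest, 16502 bp downstream of the start at chr17:56814436-56814585, scored 125 and 90, and the next, 22282 bp downstream, scored 119 and 79. Rfx4 had 4 shared promoter peaks and 8 distal ones. They fell in 2 runs of 4. One lies in its own introns, and the other lies 43911 to 45671 bp upstream, in introns of Polr3b. The highest scores of these runs were 91 and 52, and 96 and 45. Rfx1 had 6 distal shared peaks, Rfx5 and Rfx7 had 3 each and Rfx6 had 1.

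**Figure D5:**
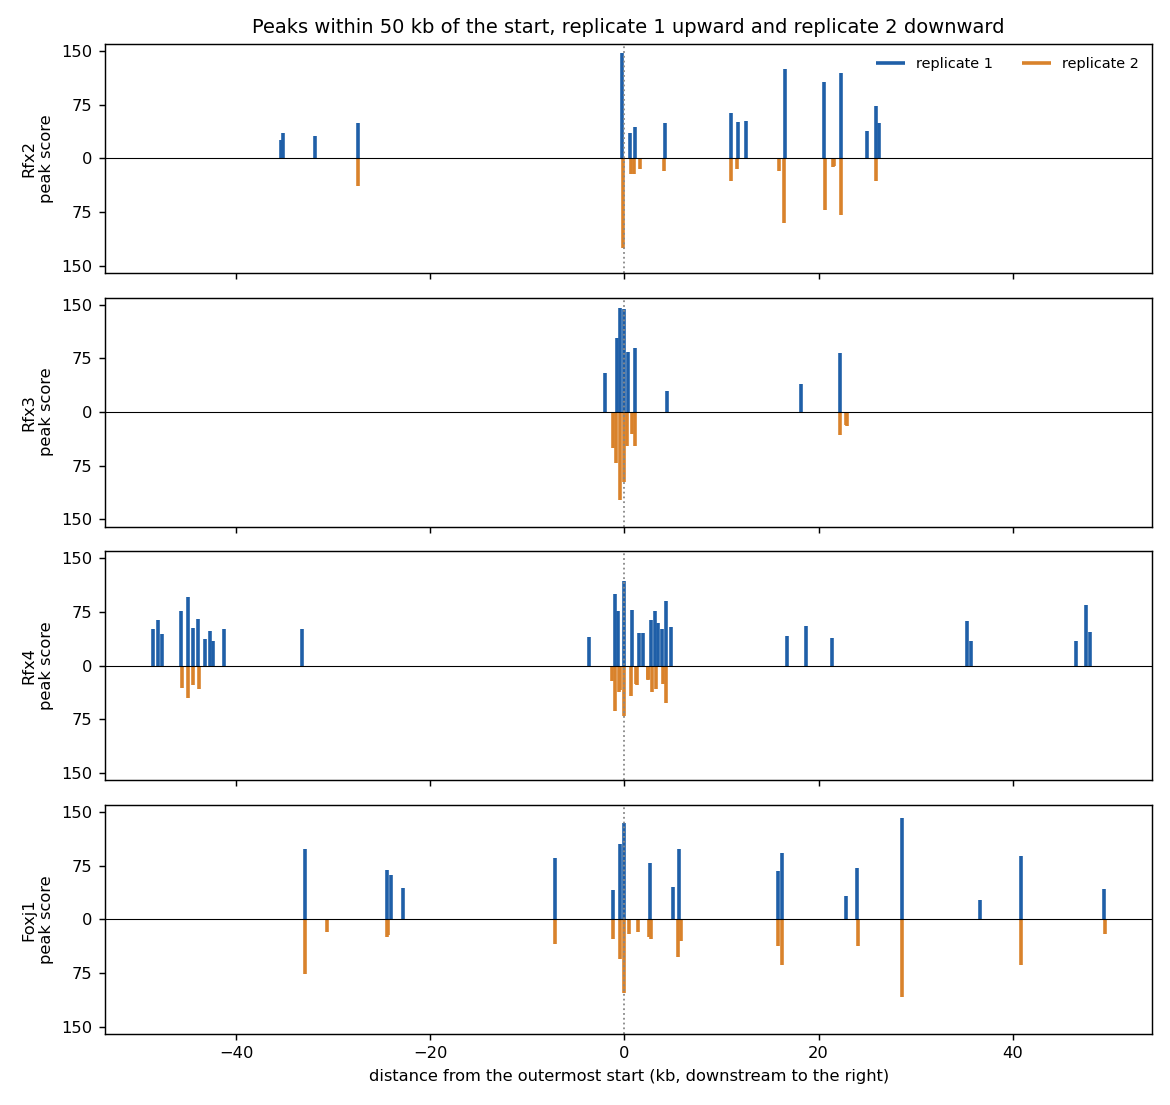
Score of each peak (vertical axis, replicate 1 upward and replicate 2 downward) against its distance in kb from the outermost start (horizontal axis, downstream to the right) for Rfx2, Rfx3, Rfx4 and Foxj1. Rfx3 shows peaks mainly at the start, Rfx2 several downstream of it, Rfx4 a second run near 45 kb upstream, and Foxj1 a site 28608 bp downstream with scores of 141 and 109, which is at the start of another gene. Peaks at other starts are drawn too.

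Foxj1, the forkhead regulator of motile cilia, had a promoter peak 52 bp upstream of its start with scores of 135 and 103. That peak held an X-box with 2 mismatches, and the gene had 11 distal shared peaks within 50 kb. A higher peak 28608 bp downstream (141 and 109) lies within 1 kb of the start of another gene and is not counted among them. The site in the promoter is printed because FOXJ1 is itself known to be under RFX control.
Foxj1: ggcggggcGTCGCCATGGCAGCagaagaag
This window is chr11:116335401-116335430 on mm10, minus strand, with the X-box in capitals. Foxj2 scored 100 and 79 and Foxj3 133 and 109. In all, 13 of 14 regulators of multiciliated cells had a shared promoter peak, and 1 of these 13, Foxj1, held an X-box with up to 2 mismatches. Split by CpG ratio, the first count was 11 of 11 at 0.6 and over, where the background is 96.6%. Under 0.6 it was 2 of 3, where the background is 35.6%. Most of these regulators thus lie in the class where nearly every gene has such a peak. The X-box count, 7.69%, rests on 1 gene and is set against a background of 4.5%. Mcidas and Gmnc, which start the multiciliation programme, scored 98 and 61, and 62 and 25. Ccno, which works in centriole amplification, scored 138 and 97, and Trp73 55 and 32. Deup1, a scaffold for making many centrioles, had a promoter peak in each library (80 and 20) but at positions that did not overlap.

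Some members differed between libraries in the number of distal peaks. Replicate 1, whose peak list is longer, gave more distal peaks than replicate 2 for 69 members and fewer for 9. This was not counted over all protein-coding genes, whose medians were 8 in replicate 1 and 4 in replicate 2. Cfap46 had the largest surplus, with 22 in replicate 1 and 2 in replicate 2, and 20 of the 22 were private to replicate 1, with a median score of 33. Rfx4 had 29 and 13, with 21 private peaks in replicate 1 of median score 47, which is the median of that library. The other way, Dnah7c had 2 in replicate 1 and 25 in replicate 2, of which 23 were private with a median score of 6, and Cfap74 had 4 and 10, with 7 private peaks of median score 11. The private peaks of replicate 2 at these genes were thus far below the median of 30 of that library, and Dnah7c is one of the near-identical copies.

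The peak lists held 263679 peaks in replicate 1 and 148804 in replicate 2, with median scores of 47 and 30. Of these, 111722 (42.4%) and 114674 (77.1%) overlapped a peak of the other library. Read numbers are not in the peak or hotspot lists, so the depth behind them is unknown. Of the markers of hindbrain and neural cells, 8 of 8 had a shared promoter peak (Hoxa2 scored 118 and 64, Zic1 134 and 85, Sox2 124 and 85). The share was 64.6% over all genes and 96.6% over those with a CpG ratio of 0.6 and over, where 5 of the 8 fall. Among choroid plexus and ependymal markers, 5 of 7 had one (71.4%), near the share of all genes. They were Foxj1 (above), Aqp1 (92 and 45), Otx2 (63 and 35), Kcnj13 (28 and 16) and Ttr (66 in replicate 1, its partner in replicate 2 lying outside the 1 kb window). The Kcnj13 peak stood only at percentile 10.74 in replicate 1 and 11.45 in replicate 2. Clic6 had a promoter peak in replicate 1 only and Folr1 had none. Split by CpG ratio, the choroid plexus and ependymal count was 2 of 2 at 0.6 and over, where the background is 96.6%. Under 0.6 it was 3 of 5, where the background is 35.6%. Markers of germ cells (1 of 6, Dazl), of microglia and blood (1 of 5, P2ry12) and of airway (0 of 3) were below the share of all genes. All markers of microglia, blood and airway have a CpG ratio under 0.6, where that share is 35.6%. The germ cell count was 1 of 3 at 0.6 and over and 0 of 3 under it. Whether the choroid plexus cells in the tissue give the peaks at motile cilia genes was not tested.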

How the data were processed

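The authors deposited for each of the 2 libraries a list of 150 bp peaks with a score and a list of hotspots with a −log10 q-value, made on mm10, per the notes that accompany each deposited sample. Aligner, caller and settings, and what the deposited score counts: not given in the sources used here. Starts came from the GENCODE M21 basic set and sequence from GRCm38.p6. Peaks off the assembled chromosomes were left out (253 and 303). Peaks count as promoter peaks when the midpoint lies no more than 1 kb from any start of the gene. A shared peak overlapped a peak of the other library by at least 1 bp and kept the position of replicate 1. CpG ratios cover 500 bp on each side of the outermost start. With 1 group, no test was run. Named members are the 2 highest and 2 lowest scores of each family, the 3 highest distal counts of each class, all Rfx genes, all members with no promoter peak and all with an X-box of at most 1 mismatch, and others of the lists with their values. Members and lists were chosen with earlier results of these data known. RefSeq starts, the full GENCODE set, 5 CpG classes and leaving out Dnah7a to Dnah7c were chosen after seeing the data. Rabl5 and Tctn2 were not found under these symbols. Scripts in Python 3.11.15 (numpy 2.4.6, scipy 1.17.1, matplotlib 3.10.9) with samtools 1.23.1 were tested on simulated data.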

Additional observations from a re-analysis of the deposited data

How the results depend on the processing

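The 11 results were recomputed under 84 alternatives, and 61 stayed within the limit set for them. For counts this was a set ratio to the main value. For medians and the difference it was the standard deviation of the values of the 2 libraries, each taken alone. The limit is loose: the distal median of primary genes, 2.5, was 1 within 20 kb and still met it. Percentiles were set against scores, so their place in the count has no meaning. Counts and medians of a single class have no direction. Only the difference in promoter share could reverse, and it did not. The difference in promoter share between primary and motile genes, 12 percentage points, was 14 with a 500 bp window or the outermost start alone, 16 with the upper 50% of scores, 13.2 without genes that have another start within 1 kb, 0 at a CpG ratio of 0.6 and over and 19.4 under it. The median number of distal shared peaks within 100 kb was 8.5 for primary genes, 9 for motile genes and 9 for Rfx genes. Within 20 kb it was 1 for primary, 1 for motile and 2 for Rfx genes. With the upper 50% of scores it was 1 for primary, 2 for motile and 1 for Rfx genes. With 1 library left out it ranged from 4 to 7 for primary, 5 to 9 for motile and 4 to 6 for Rfx genes, since peaks then need no partner. Median promoter scores without replicate 1 were 116.5 for primary and 80.5 for motile genes, on the scale of replicate 2. Median percentiles in replicate 1 were 98.8 for primary and 94.8 for motile genes. X-box counts were 1 primary and 4 motile genes at up to 1 mismatch, and 8 and 26 at up to 3. They were 11 and 12 within 500 bp of a start, peak or not. With a spacer of 1 to 3 letters, 7 primary and 18 motile genes held one, beside 7.87% of all genes with a shared promoter peak. The depth of the libraries is unknown, and a gene without a peak may hold a site that these libraries did not resolve. The spread rests on 2 libraries.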
